A study of Homo sapiens with 12 samples.

Results

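The mitochondrial chromosome of human cells carries 37 genes, and their transcripts were followed in SNU308, a gallbladder cancer cell line, after siRNA knockdown of CEACAM6. The members were chosen by symbol, as every gene whose name starts with MT-, and this found 37 of the 60617 genes in the count tables: 13 mRNAs, 2 rRNAs and 22 tRNAs. All 37 were assigned to chromosome M of 16569 bases in GRCh38. The 3 groups, of 4 samples each, received a non-targeting control siRNA (NTC), siCEACAM6#2 or siCEACAM6#3; the dose was 25 nM and the cells were collected on day 3. All 12 samples came from this single wild-type line, and all received an siRNA, so no untransfected cells were compared. The share of counts from these genes in each sample was known when they were selected, so that share is given as a description with no test.

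Each strand of the mitochondrial chromosome is read into a long precursor that holds many genes. Most mRNAs and the rRNAs are flanked by tRNAs, and cutting the tRNAs out releases them. The released mRNAs receive a poly(A) tail, apart from that of MT-ND6, which is known for lacking a stable tail, and the rRNAs carry short tails. The mRNAs encode subunits of respiratory complexes I, III and IV and of ATP synthase, the rRNAs build the mitochondrial ribosome, and the tRNAs serve its translation.

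The total count was between 21799476 and 22059456 per sample. CEACAM6 itself, a cell surface adhesion protein, had means of 577 ± 40.6 in NTC, 328 ± 29.6 after siCEACAM6#2 and 418 ± 22.1 after siCEACAM6#3 in CPM, counts scaled to a common library size (SD, n = 4). The epithelial markers EPCAM, CDH1, KRT7, KRT8, KRT18 and KRT19 stood between 227 and 3659 CPM, and of the fibroblast, endothelial and blood cell markers COL1A1 and VWF reached 11.4 and 12.3 CPM while the others stayed at or below 2.31. Libraries were made with oligo(dT) beads, and 5 RNAs without a poly(A) tail (RN7SK, RN7SL1, RN7SL2, RMRP, RPPH1) summed to 0.000581% to 0.00352% of the counts. The library siCEACAM6#3 replicate 1 had the lowest mitochondrial share of its group (12.5%, with 14.3% to 15.3% in the other 3). Counts of called genes are therefore also given without it.

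Some of these genes overlap, which decides how reads are assigned to them. MT-ATP8 (chrM:8366-8572) and MT-ATP6 (chrM:8527-9207), both subunits of ATP synthase carried by a shared mRNA, have 46 bases in common. MT-ND4L (chrM:10470-10766) and MT-ND4 (chrM:10760-12137), both subunits of complex I and likewise carried by a shared mRNA, have 7 bases in common. The sequences below were read from GRCh38, forward strand, at chrM:8512-8587 and chrM:10745-10781, with the shared bases in capitals and 15 bases on each side.
MT-ATP8 and MT-ATP6 overlap: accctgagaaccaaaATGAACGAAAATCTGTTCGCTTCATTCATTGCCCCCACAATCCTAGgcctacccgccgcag
MT-ND4L and MT-ND4 overlap: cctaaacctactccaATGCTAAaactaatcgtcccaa

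In both windows the capitals open with the ATG start codon of the downstream gene and close with the stop codon of the upstream gene, TAG for MT-ATP8 and TAA for MT-ND4L. The estimated counts of MT-ATP8 were deposited with a decimal that was not 0 in all 12 samples. Counts as high as those of MT-ATP6 carry no decimals in the files, so whether they are whole cannot be read.

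The mRNA genes also differ in how they end. In 6 of the 13 (MT-ND1, MT-ND2, MT-CO3, MT-ND3, MT-ND4 and MT-CYB) the annotated gene stops at T or TA, and the poly(A) tail is known to complete the stop codon. The 7 others end in a full triplet. The gene ends below, 5′ to 3′ on the coding strand, show an end of each kind, with the last bases of the reading frame in capitals; they lie at chrM:9965-9990 (MT-CO3), chrM:4236-4262 (MT-ND1), chrM:8242-8269 (MT-CO2) and, on the reverse strand, chrM:14149-14176 (MT-ND6).
MT-CO3 end: tgtctccatctattgatgagggtctT
MT-ND1 end: aatctccagcattccccctcaaaccTA
MT-CO2 end: tgaaatagggcccgtatttaccctaTAG
MT-ND6 end: tgtaattgagattgctcgggggaatAGG

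The mitochondrial genes took 12.2%, 11.8%, 12.9% and 12.6% of the counts in NTC replicates 1 to 4. The share was 12.3%, 13.3%, 13.2% and 12.2% with siCEACAM6#2. It was 12.5%, 15.3%, 14.3% and 14.6% with siCEACAM6#3. Group values were thus 12.4% ± 0.463, 12.7% ± 0.595 and 14.2% ± 1.21 (SD, n = 4 each). The siCEACAM6#2 range overlapped that of NTC, and siCEACAM6#3 replicate 1 lay within the NTC range while the other 3 siCEACAM6#3 samples lay above every NTC sample. Wilson 95% intervals were at most 0.03 percentage points wide and cover counting error only, so the spread between samples was far larger than the counting error. Leaving out siCEACAM6#3 replicate 1 gave that group a mean of 14.7%.

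Nearly all of this share was mRNA. The 13 mRNAs made up 11.2% ± 0.476, 11.6% ± 0.559 and 12.8% ± 1.2 of the counts in NTC, siCEACAM6#2 and siCEACAM6#3. The rRNAs made up 1.12% ± 0.0612, 1.13% ± 0.0616 and 1.35% ± 0.0705. Here the siCEACAM6#3 samples (1.28% to 1.41%) did not overlap NTC (1.04% to 1.19%), replicate 1 included. The 22 tRNA genes together made up 0.0104% ± 0.00066, 0.012% ± 0.000751 and 0.0142% ± 0.0009, and the siCEACAM6#3 samples again lay above all NTC samples.

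**Figure D1:**
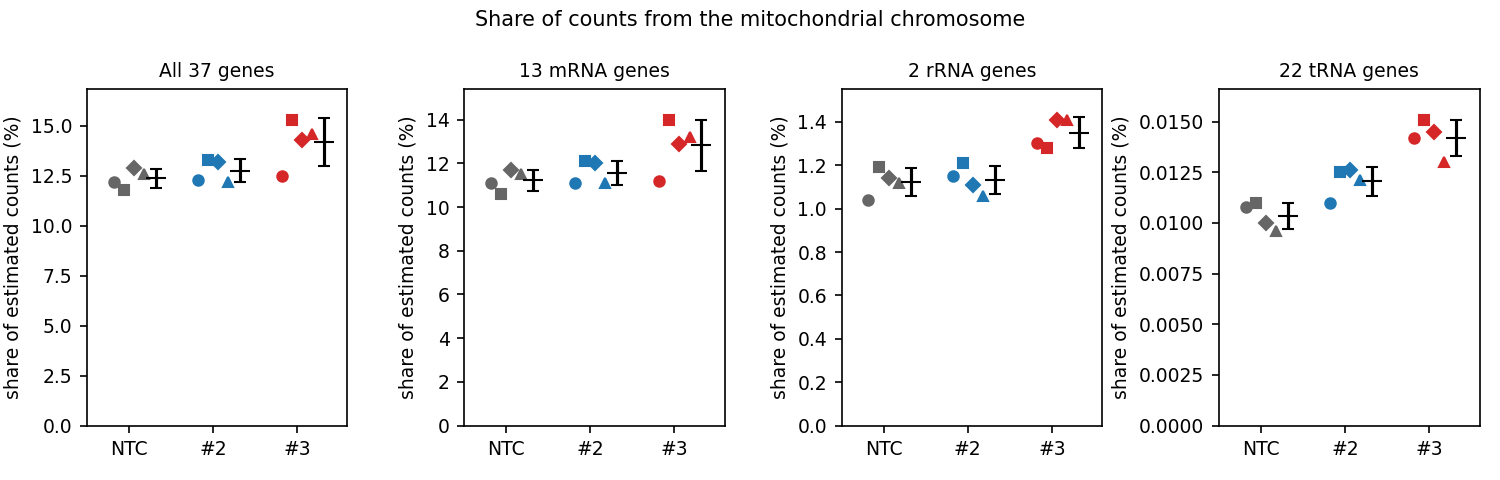
Share of the estimated counts (%) from all 37 mitochondrial genes and from the 13 mRNA, 2 rRNA and 22 tRNA genes, in NTC, siCEACAM6#2 (#2) and siCEACAM6#3 (#3); points are samples (circle, square, diamond and triangle for replicates 1 to 4) and bars show the mean ± SD of 4 samples. The circle of #3 sits at 12.5%, within the NTC range, in the first panel, while in the rRNA panel all 4 samples of #3 lie above NTC.

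Of the 37 members, 25 had enough counts to be tested: all 13 mRNAs, both rRNAs and 10 of the 22 tRNA genes. The other 12 tRNA genes were too low to read. On the heavy strand transcript these were MT-TF (0 to 3 counts per sample), MT-TV (0 to 5), MT-TI (0 to 5), MT-TM (0 to 2), MT-TW (0 to 4), MT-TD (0 to 3), MT-TK (0 to 3), MT-TG (1 to 5), MT-TR (0 to 2), MT-TH (1 to 6) and MT-TS2 (0 to 3). On the light strand transcript MT-TQ alone was too low, with 0 or 1 count per sample. In 10 of these 12 genes at least 1 sample was at 0, and a count of 0 allows up to 3 counts, or 0.134 to 0.141 CPM.

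Readable tRNA genes lay mostly on the light strand transcript. Of the 8 tRNA genes encoded on the light strand transcript, 7 could be read (MT-TA, MT-TN, MT-TC, MT-TY, MT-TS1, MT-TE and MT-TP), against 3 of the 14 on the heavy strand transcript (MT-TL1, MT-TL2 and MT-TT). Light strand tRNA genes held 95% of all tRNA counts over the 12 samples, and MT-TP and MT-TC together held 80.4%. These tRNAs decode proline and cysteine. Their sequences stand here beside that of the tRNA for glutamine, MT-TQ, which was not readable, each on its coding (reverse) strand in GRCh38, at chrM:15956-16023, chrM:5761-5826 and chrM:4329-4400.
MT-TP: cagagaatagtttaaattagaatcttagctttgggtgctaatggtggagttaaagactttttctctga
MT-TC: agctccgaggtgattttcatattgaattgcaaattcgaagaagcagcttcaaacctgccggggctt
MT-TQ: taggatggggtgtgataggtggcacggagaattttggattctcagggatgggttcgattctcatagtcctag

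Over all 22 tRNA genes, the readable ones were 66 to 75 bases long and the others 59 to 72. It is not stated whether the counting used strand. Without strand, reads from a light strand RNA and from the opposite strand over the same bases cannot be told apart, and this holds for MT-ND6 and for every light strand tRNA gene. Tails on tRNAs were not measured, and a count here is a fragment assigned to the gene, which need not come from a mature tRNA.

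**Figure D2:**
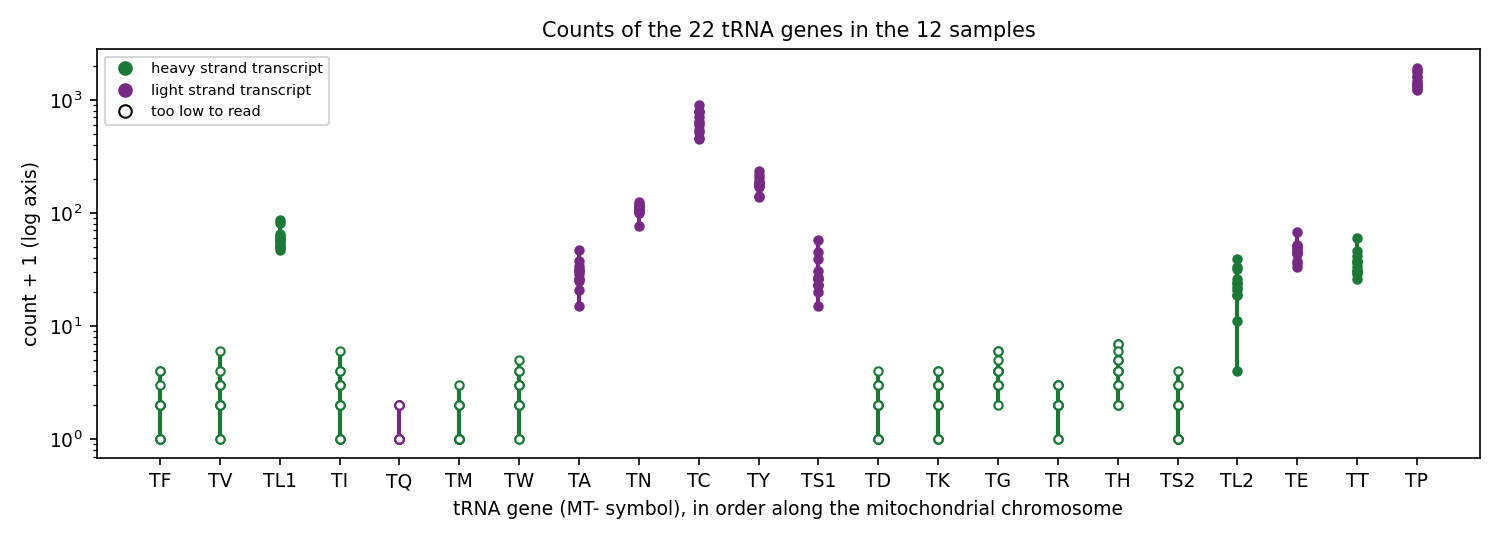
Counts of the 22 tRNA genes, plotted as count + 1 on a log axis, in the order of the genes along the mitochondrial chromosome; each point is 1 of the 12 samples, green for heavy and purple for light strand transcripts, open where the gene was too low to read. The 2 highest genes, MT-TP (1219 to 1917 counts) and MT-TC (447 to 890), are both on the light strand transcript, and no open point passes 6 counts.

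Per length, in TPM, which divides counts by effective gene length, the mRNAs and rRNAs of NTC cells spanned from 36924 ± 1848 for MT-CO2 to 1516 ± 60.6 for MT-RNR1 (SD, n = 4). MT-CO2, a subunit of complex IV, lay above every other gene in all NTC samples. MT-CO1 (26275 ± 968) and MT-CO3 (25358 ± 336), the other complex IV subunits, followed, and their ranges overlapped. MT-ATP8 (21640 ± 760) overlapped MT-ND4L (21004 ± 1406), and MT-ATP6 (17898 ± 669) overlapped MT-ND4 (17445 ± 1198). MT-ND1 (13652 ± 807), a complex I subunit, stood apart from its neighbours. MT-CYB (10182 ± 470), the complex III subunit, MT-ND2 (10148 ± 466), MT-RNR2 (9376 ± 521) and MT-ND3 (8695 ± 635) overlapped in order, each with the next. MT-ND6 (6357 ± 343) and MT-ND5 (4788 ± 176), both of complex I, stood apart below them. As the libraries were poly(A)-selected, the level of an rRNA or of MT-ND6 in them is not its level in total RNA.

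The question of the comparisons is what lowering CEACAM6 does to gene expression, and both siRNA groups were set against the same 4 NTC samples, so their results are not independent. Each gene was tested by limma-voom across 17620 genes, with Benjamini-Hochberg adjustment over all of them, and a gene was called at an adjusted p under 0.05. The members make up the mitochondrial share, which was known when they were selected. Many are also read from the same precursors, so they are not independent of each other. Their signs, medians and counts of calls are therefore a description and no evidence of a rise. In these bulk samples, more mitochondria per cell and more RNA per mitochondrion cannot be told apart.

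With siCEACAM6#2, 0 members were called versus NTC by limma-voom, where 1.25% of all genes tested were. By edgeR 0 members were called, beside 254 of all 17620 genes, and by DESeq2 1 (MT-TC), beside 534 of all genes. At an unadjusted p under 0.05, 5 members were higher and 0 lower (MT-ND6, MT-ND3, MT-TC, MT-TP and MT-ATP8), where 6.50% of all genes were higher. Log2 fold changes were positive for 20 of the 25, with a median of 0.11, against 50.1% of all genes with a median of 0.000. In MT-ND5 alone all 4 samples lay above all 4 of NTC, as did 5.34% of all genes.

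With siCEACAM6#3, MT-TP rose versus NTC, and it was the single member called by limma-voom, where 0.0681% of all genes were. By edgeR, which called 13 of all 17620 genes, it was the single member called as well. DESeq2 called 220 of all genes and 8 members (MT-ATP8, MT-ND3, MT-ND5, MT-ND6, MT-RNR2, MT-TC, MT-TP and MT-TY), all 8 higher. At an unadjusted p under 0.05, 20 members were higher and 0 lower, where 5.98% of all genes were higher. Log2 fold changes were positive for 24 of the 25, with MT-TT at -0.06 as the exception, and their median was 0.26, against 48.9% of all genes with a median of -0.003. In 6 members (MT-RNR2, MT-TC, MT-TY, MT-TL2, MT-TP and MT-ATP8) all 4 samples lay above all 4 of NTC, as did 2.99% of all genes. Once siCEACAM6#3 replicate 1 was left out, 13 members were called, all higher (MT-CO1, MT-ATP6, MT-ATP8, MT-ND2, MT-ND3, MT-ND4, MT-ND4L, MT-ND5, MT-ND6, MT-RNR2, MT-TC, MT-TY and MT-TP), and the calls over all genes went from 12 to 258. That replicate was singled out for its low mitochondrial share, so higher values without it follow from the choice and are no evidence of a rise.

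For the average of both siRNAs versus NTC, MT-TP was again the single member called by limma-voom and by edgeR. Of all genes, limma-voom called 0.227% there and edgeR called 55 of 17620. DESeq2 called 5 members (MT-ATP8, MT-ND3, MT-ND6, MT-TC and MT-TP), beside 332 of all 17620 genes. In the average 12 members were higher at an unadjusted p under 0.05, where 6.06% of all genes were. All 25 log2 fold changes of the average were positive, with a median of 0.18, against 49.1% of all genes with a median of -0.002. Between the siRNAs, MT-RNR2 and MT-TP rose with siCEACAM6#3 versus siCEACAM6#2 by limma-voom, where 1.47% of all genes were called. DESeq2 called both and MT-RNR1 too, beside 556 of all 17620 genes. At an unadjusted p under 0.05, 9 members were higher with siCEACAM6#3, where 6.81% of all genes were, and 23 of the 25 were positive with a median of 0.16, against 48.8% and -0.004 for all genes. In 4 members (MT-RNR2, MT-TN, MT-TY and MT-TP) the siCEACAM6#3 samples all lay above those of siCEACAM6#2, as did 3.34% of all genes. Leaving out siCEACAM6#3 replicate 1 gave 8 called members between the siRNAs and 5 in the average. The calls over all genes went from 259 to 651 and from 40 to 190. That replicate was singled out for its low mitochondrial share, so these counts are no evidence of a rise.

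**Figure D3:**
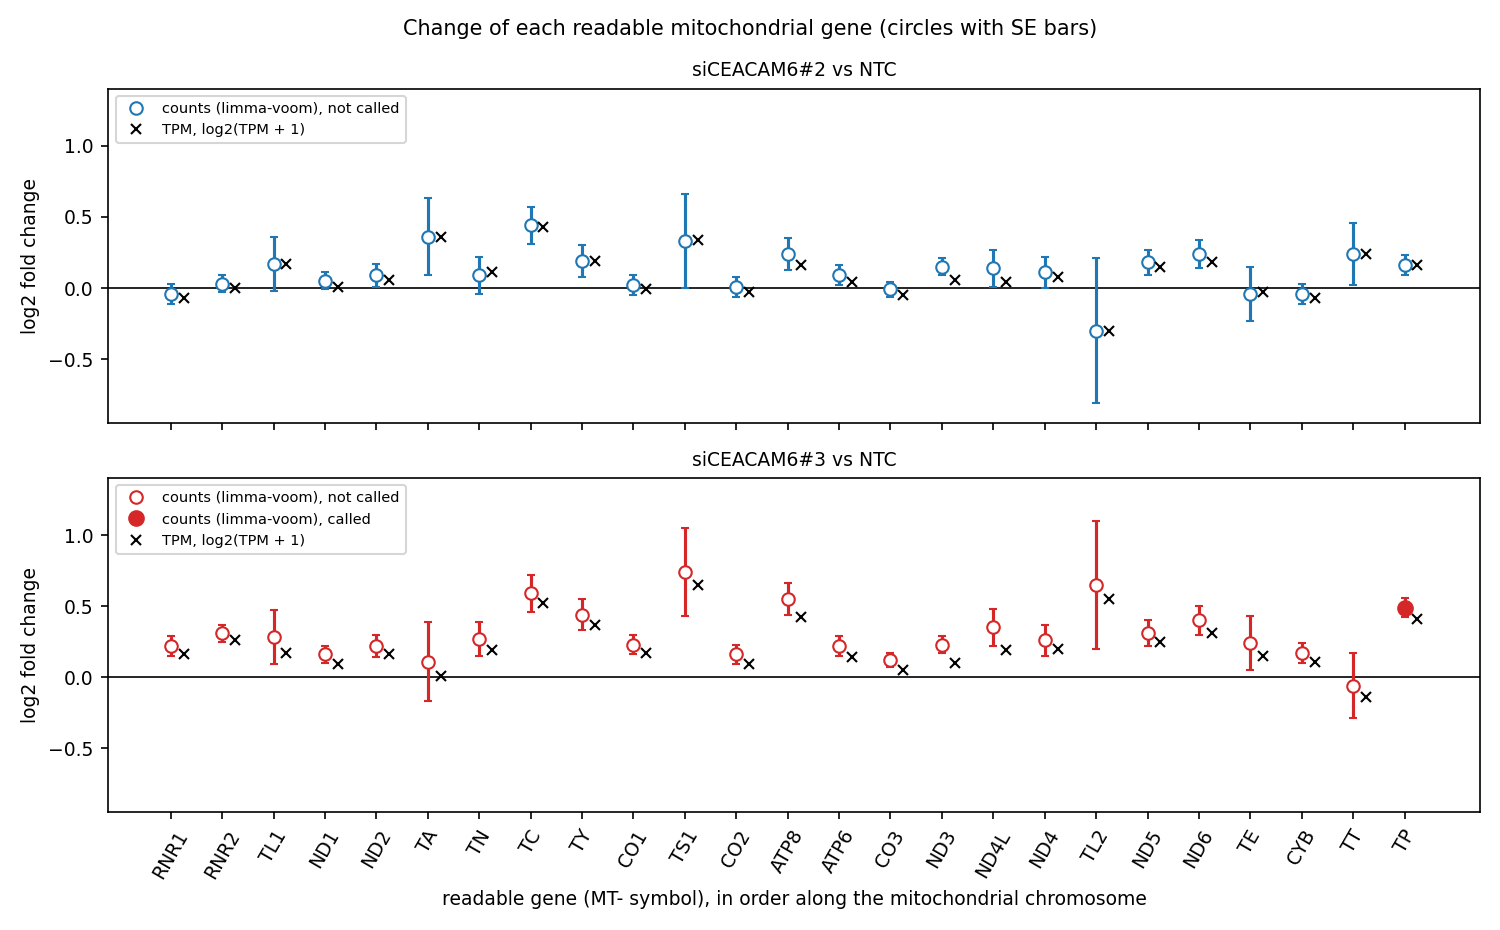
Log2 fold change versus NTC of the 25 readable mitochondrial genes in chromosome order, for siCEACAM6#2 (top) and siCEACAM6#3 (bottom); circles with SE bars come from counts (limma-voom, filled where called) and crosses from log2(TPM + 1). In the lower panel 24 of 25 circles lie above 0, MT-TP is the filled one, and the crosses lie below the circles.

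MT-TP (chrM:15956-16023), the first gene that the light strand transcript reaches, gave 55.5, 62.6, 61 and 55.6 CPM in NTC. It gave 62.8, 73.4, 66.3 and 59.4 CPM with siCEACAM6#2. It gave 78.9, 85.8, 87.8 and 76 CPM with siCEACAM6#3. Every siCEACAM6#3 sample, replicate 1 included, lay above every sample of both other groups, while siCEACAM6#2 overlapped NTC. MT-TP rose by 0.49 ± 0.07 on the log2 scale (SE; limma-voom adjusted p = 0.0151) with siCEACAM6#3, and its change was 0.16 ± 0.07 (adjusted p = 0.352) with siCEACAM6#2 and 0.32 ± 0.06 (adjusted p = 0.0417) in the average. Between the siRNAs it was 0.33 ± 0.07 (adjusted p = 0.0262). The siCEACAM6#3 call was lost without NTC replicate 1, NTC replicate 4 or siCEACAM6#3 replicate 3, and over the 12 fits that each left out a sample the log2 fold change was 0.46 to 0.52 and the adjusted p 0.00506 to 0.0922. Between the siRNAs the call went when replicate 1, 3 or 4 of siCEACAM6#2 was left out, or replicate 2 or 3 of siCEACAM6#3 (0.28 to 0.39, adjusted p up to 0.0978). The call of the average stayed in 4 of the 12 fits, those leaving out replicate 1 or 4 of either siRNA (0.30 to 0.36, adjusted p up to 0.184).

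MT-RNR2 (chrM:1671-3229), the large ribosomal RNA, gave 9346, 10728, 10520 and 10218 CPM in NTC. It gave 10495, 11264, 10315 and 9629 CPM with siCEACAM6#2. It gave 11803, 12228, 13207 and 13347 CPM with siCEACAM6#3. Again all siCEACAM6#3 samples lay above all others and the remaining groups overlapped. MT-RNR2 rose by 0.28 ± 0.06 on the log2 scale with siCEACAM6#3 versus siCEACAM6#2 (limma-voom adjusted p = 0.0247). This call went when replicate 1, 3 or 4 of siCEACAM6#2 was left out, or replicate 3 or 4 of siCEACAM6#3, and the 12 fits that each left out a sample gave 0.24 to 0.32 with an adjusted p up to 0.105. Versus NTC it was 0.31 ± 0.06 with siCEACAM6#3 (adjusted p = 0.0771) and 0.03 ± 0.06 with siCEACAM6#2 (adjusted p = 0.884).

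MT-RNR1 (chrM:648-1601), the small ribosomal RNA, is encoded just upstream of MT-RNR2. It gave 842, 926, 951 and 926 CPM in NTC. It gave 956, 932, 857 and 812 CPM with siCEACAM6#2. It gave 1049, 950, 1094 and 1163 CPM with siCEACAM6#3. Replicate 2 of siCEACAM6#3 lay among the other groups, and the remaining 3 were above them. The change between the siRNAs was 0.26 ± 0.07 (limma-voom adjusted p = 0.0648) and versus NTC 0.22 ± 0.07 with siCEACAM6#3 (adjusted p = 0.19), and neither passed the threshold. Per length, MT-RNR1 stood at 0.162 ± 0.00372 of MT-RNR2 in NTC, at 0.154 ± 0.00762 after siCEACAM6#2 and at 0.151 ± 0.00915 after siCEACAM6#3 (TPM ratio, SD, n = 4).

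MT-CO1 (chrM:5904-7445), the catalytic subunit of complex IV, took 22% to 23.5% of the mitochondrial counts of each sample. It gave 26910, 26766, 29717 and 29604 CPM in NTC. It gave 27136, 30645, 29133 and 27733 CPM with siCEACAM6#2. It gave 28373, 36040, 33257 and 34967 CPM with siCEACAM6#3, of which 3 lay above all NTC samples and replicate 1 lay among them. Its log2 fold change versus NTC came to 0.23 ± 0.07 with siCEACAM6#3 (limma-voom adjusted p = 0.195) and 0.02 ± 0.07 with siCEACAM6#2 (adjusted p = 0.936). Approximate 95% intervals were 0.09 to 0.36 and -0.11 to 0.15. They use the normal distribution and are narrower than the t distribution of the fit would give.

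MT-CO2 (chrM:7586-8269), which holds an electron entry site of the same complex, gave 13435, 13446, 15592 and 14196 CPM in NTC. It gave 14050, 15130, 14603 and 13342 CPM with siCEACAM6#2. It gave 13746, 15882, 16727 and 17182 CPM with siCEACAM6#3. The groups overlapped through siCEACAM6#3 replicate 1. The change, not called, stood at 0.16 ± 0.07 on the log2 scale with siCEACAM6#3 (limma-voom adjusted p = 0.349) and 0.01 ± 0.07 with siCEACAM6#2 (adjusted p = 0.963). MT-CO3 had the smallest change of the mRNAs with siCEACAM6#3, at 0.12 ± 0.05 (adjusted p = 0.391).

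MT-ND6 (chrM:14149-14673, reverse strand), the single mRNA of the light strand transcript, gave 1522, 1535, 1699 and 1747 CPM in NTC. It gave 1747, 2078, 2130 and 1728 CPM with siCEACAM6#2. It gave 1731, 2500, 2075 and 2322 CPM with siCEACAM6#3. Both siRNA groups reached above NTC but overlapped its upper end. Relative to NTC the log2 value was 0.24 ± 0.10 with siCEACAM6#2 (limma-voom adjusted p = 0.288) and 0.40 ± 0.10 with siCEACAM6#3 (adjusted p = 0.138).

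The balance of the strands was also read as the ratio of MT-ND6 to the 12 heavy strand mRNAs within each sample, which the mitochondrial share does not enter. The ratio of counts was 0.0142, 0.0149, 0.0146 and 0.0155 in NTC. It was 0.016, 0.0173, 0.0179 and 0.016 with siCEACAM6#2. It was 0.0159, 0.0177, 0.0162 and 0.0175 with siCEACAM6#3. All samples of either siRNA lay above all NTC samples on counts, and the siRNA groups overlapped. As a TPM ratio siCEACAM6#2 replicate 4 (0.0311) fell below NTC replicate 4 (0.0313), and the other siRNA samples (0.0315 to 0.0345) lay above NTC. On the log2 scale the difference of the count ratio from NTC was 0.18 for each siRNA, with an exact two-sided permutation p of 0.0286, the smallest that 4 against 4 samples can give, and 0.0857 after adjustment over the 6 ratio tests. Neither difference passed 0.05 after adjustment, and given the other ratio tests neither could have, since both stood at the smallest possible p. The adjusted p therefore does not decide whether the ratio differs. Between the siRNAs it was 0.00 (exact p = 1).

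The ratio of rRNA to mRNA counts was 0.0998 ± 0.00804 in NTC, against 0.0977 ± 0.00486 for siCEACAM6#2 and 0.106 ± 0.0106 for siCEACAM6#3 (SD, n = 4). The groups overlapped, and no pair of groups differed beyond the spread (exact permutation p = 0.714, 0.429 and 0.229 for siCEACAM6#2 versus NTC, siCEACAM6#3 versus NTC and between the siRNAs, adjusted to 0.857, 0.643 and 0.457). The log2 differences were -0.03, 0.09 and 0.12.

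MT-ATP8, a small subunit of ATP synthase, had the largest log2 fold change of the mRNAs with siCEACAM6#3. It gave 775, 800, 806 and 834 CPM in NTC. It gave 809, 933, 1085 and 977 CPM with siCEACAM6#2. It gave 885, 1360, 1205 and 1323 CPM with siCEACAM6#3. All siCEACAM6#3 samples lay above NTC, with replicate 1 the lowest of them. That change was 0.55 ± 0.11 (limma-voom adjusted p = 0.091), beside 0.24 ± 0.11 with siCEACAM6#2 (adjusted p = 0.358) and 0.39 ± 0.09 in the average (adjusted p = 0.0872), and none was called by limma-voom. DESeq2 called the first (adjusted p = 0.000167) and the average (adjusted p = 0.00307).

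MT-ATP8 is also the shortest mRNA gene, at 207 bases, and the libraries differed in fragment length. Counts and TPM of the longer mitochondrial genes gave back the mean fragment length that the quantification had used. It was 206.6, 208.6, 212.4 and 208.2 bases in NTC. It was 209.6, 202.3, 194.5 and 195.2 bases with siCEACAM6#2. It was 204.7, 195.4, 203.5 and 191 bases with siCEACAM6#3, below every NTC sample. A short gene takes more counts from a library of short fragments, and TPM corrects for this through the effective length.

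On TPM the MT-ATP8 change with siCEACAM6#3 was 0.42 ± 0.12 (limma on log2(TPM + 1), adjusted p = 0.217). With fragment length as a covariate it was 0.28 ± 0.10 (limma-voom adjusted p = 0.689) and with siCEACAM6#2 it was 0.01 ± 0.09. On log2(TPM + 1) every readable member had a lower change with siCEACAM6#3 than on counts, and the median of all genes was -0.042. MT-ND4L, of 297 bases, went from 0.35 ± 0.13 on counts to 0.19 ± 0.14 on TPM, and MT-ND3, of 346 bases, from 0.23 ± 0.06 to 0.10 ± 0.07, while MT-CO1, of 1542 bases, went from 0.23 ± 0.07 to 0.17 ± 0.09. MT-TP, of 68 bases, is shorter than the mean fragment of every library, and the effective lengths of tRNA genes were 23 to 36.8 bases. How far its count depends on the shorter fragments of a library was not tested. MT-TP stood at 0.41 ± 0.08 on TPM (adjusted p = 0.123) and 0.54 ± 0.09 with the covariate (adjusted p = 0.092), but was not called in either fit. Of all 17620 genes, the TPM fit called 4 and the covariate fit 0 with siCEACAM6#3 versus NTC. MT-RNR2 was at 0.26 ± 0.07 on TPM and 0.33 ± 0.08 with the covariate. Between the siRNAs, with the covariate, MT-RNR2 (0.28 ± 0.06, adjusted p = 0.0223) and MT-TP (0.34 ± 0.07, adjusted p = 0.0199) were called, and so was MT-RNR1. That fit called 298 of all 17620 genes between the siRNAs. The part of fragment length in the changes versus NTC cannot be told apart from siCEACAM6#3, since those groups do not overlap in it.

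Within the shared mRNA, the count ratio of MT-ATP8 to MT-ATP6 was 0.118 ± 0.00704 in NTC, 0.131 ± 0.0136 with siCEACAM6#2 and 0.149 ± 0.0168 with siCEACAM6#3. As a TPM ratio it was 1.21 ± 0.0831, 1.31 ± 0.111 and 1.47 ± 0.145. The ratio of MT-ND4L to MT-ND4, the other overlapping pair, was 0.107 ± 0.00345, 0.109 ± 0.00731 and 0.114 ± 0.00818 on counts and 1.2 ± 0.0262, 1.17 ± 0.0374 and 1.2 ± 0.102 on TPM. In the first pair the siCEACAM6#3 samples lay above NTC on counts (0.127 to 0.167 against 0.111 to 0.125), and on TPM the ranges met at 1.28 (1.28 to 1.62 against 1.11 to 1.28), while in the second the groups overlapped on both scales. These pairs were chosen after the values were seen and were not tested.

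**Figure D4:**
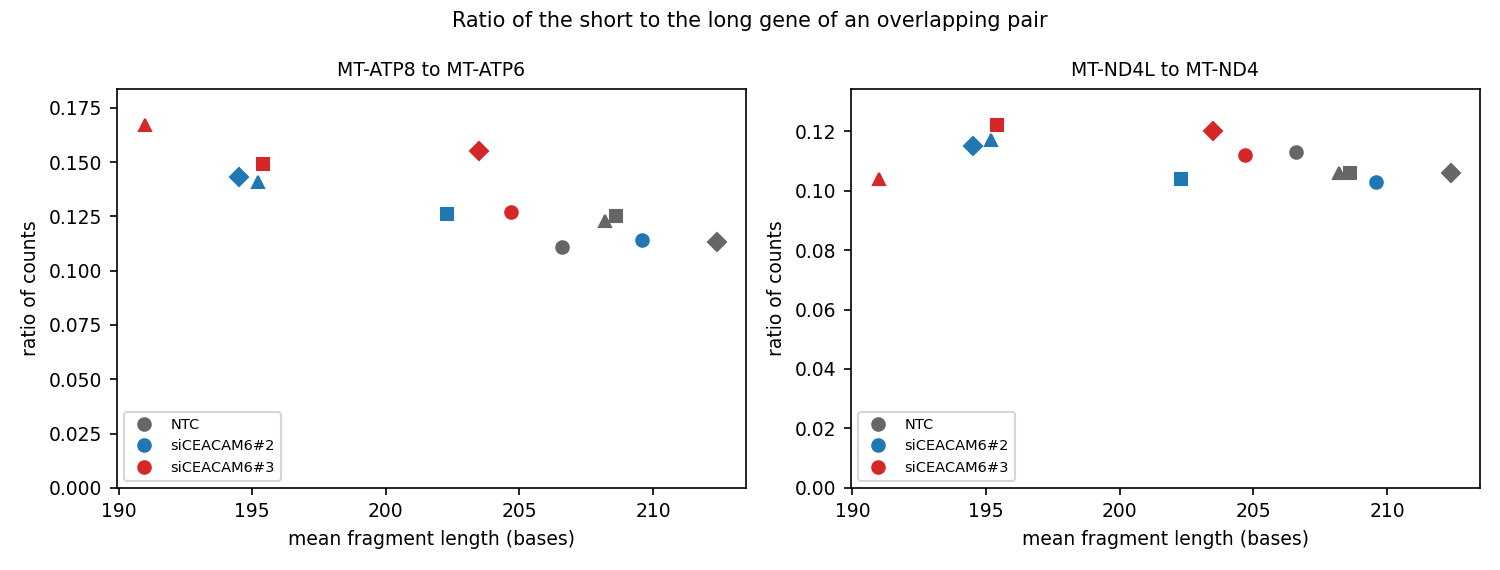
Ratio of counts of the short to the long gene of 2 overlapping pairs, MT-ATP8 to MT-ATP6 (left) and MT-ND4L to MT-ND4 (right), against the mean fragment length of the library in bases; each point is a sample, coloured by group, with marker shapes for replicates 1 to 4. The highest ratio on the left, 0.167, belongs to the library with the shortest fragments, 191 bases (siCEACAM6#3 replicate 4), and the NTC samples (0.111 to 0.125) lie at 206.6 to 212.4 bases.

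The remaining complex I subunits had positive values with both siRNAs, none of them called by limma-voom. With siCEACAM6#3 the log2 fold changes were 0.31 ± 0.09 for MT-ND5, 0.26 ± 0.11 for MT-ND4, 0.22 ± 0.08 for MT-ND2 and 0.16 ± 0.06 for MT-ND1, with limma-voom adjusted p of 0.19 to 0.358. With siCEACAM6#2 the same genes were at 0.18 ± 0.09, 0.11 ± 0.11, 0.09 ± 0.08 and 0.05 ± 0.06. MT-ATP6 was at 0.22 ± 0.07 and 0.09 ± 0.07, and MT-CYB at 0.17 ± 0.07 and -0.04 ± 0.07, with siCEACAM6#3 and siCEACAM6#2. None of these was called by limma-voom. The 6 genes that lack a full stop codon had changes of 0.12 to 0.26 with siCEACAM6#3, and the 7 others 0.16 to 0.55. These ranges overlapped, and the 0.55 was that of MT-ATP8, the shortest mRNA gene. A link to the stop codon was not tested. Of the 15 mRNA and rRNA genes, 11 had their highest CPM in siCEACAM6#3 replicate 2 and 4 in siCEACAM6#3 replicate 4. In the fit with sample weights, replicates 2 (0.456) and 4 (0.357) of siCEACAM6#3 had the lowest weights of all samples. Replicate 1 of that group had 0.635.

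MT-TC, in a cluster of light strand tRNA genes between MT-ND2 and MT-CO1, gave 26.9, 23.3, 20.5 and 21 CPM in NTC. It gave 24.2, 29.6, 36.4 and 35 CPM with siCEACAM6#2. It gave 35, 41.9, 32.1 and 29.8 CPM with siCEACAM6#3. All siCEACAM6#3 samples lay above NTC, and siCEACAM6#2 overlapped NTC through replicate 1. Versus NTC the log2 change was 0.59 ± 0.13 with siCEACAM6#3 (limma-voom adjusted p = 0.109), 0.44 ± 0.13 with siCEACAM6#2 (adjusted p = 0.122) and 0.52 ± 0.11 in the average (adjusted p = 0.0696), none of them called. DESeq2 called all 3, with adjusted p of 0.00186, 0.0197 and 0.000947.

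MT-TY (chrM:5826-5891, reverse strand), the tyrosine tRNA gene, which overlaps MT-TC by 1 base, gave 8.26, 6.28, 6.29 and 7.67 CPM in NTC. It gave 8.06, 8.31, 7.84 and 8.11 CPM with siCEACAM6#2. It gave 8.34, 11, 9.9 and 9.55 CPM with siCEACAM6#3, with replicate 1 just above the highest sample of the other groups. Its log2 change was 0.44 ± 0.11 with siCEACAM6#3 (limma-voom adjusted p = 0.134) and 0.19 ± 0.11 with siCEACAM6#2 (adjusted p = 0.488).

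The other readable tRNA genes had between 3 and 125 counts in a sample, and their errors were wide. With siCEACAM6#3 the log2 fold changes ran from -0.06 ± 0.23 for MT-TT to 0.74 ± 0.31 for MT-TS1, with MT-TL2 at 0.65 ± 0.45, MT-TL1 at 0.28 ± 0.19, MT-TN at 0.27 ± 0.12, MT-TE at 0.24 ± 0.19 and MT-TA at 0.11 ± 0.28. With siCEACAM6#2 they ran from -0.30 ± 0.51 for MT-TL2 to 0.36 ± 0.27 for MT-TA. None was called by limma-voom. DESeq2 gave no adjusted p for MT-TA, MT-TL2, MT-TS1 and MT-TT in any comparison, so it could not call them. With siCEACAM6#3 versus NTC it gave none for MT-TL1 and MT-TE either. Where it gave an adjusted p, DESeq2 called none of these genes. MT-TL2 had 3 counts in siCEACAM6#2 replicate 1 and up to 38 in the others. The approximate 95% intervals (normal distribution) of MT-TA (-0.44 to 0.66), MT-TL2 (-0.23 to 1.53) and MT-TS1 (0.12 to 1.35) each include the 0.49 of MT-TP.

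**Figure D5:**
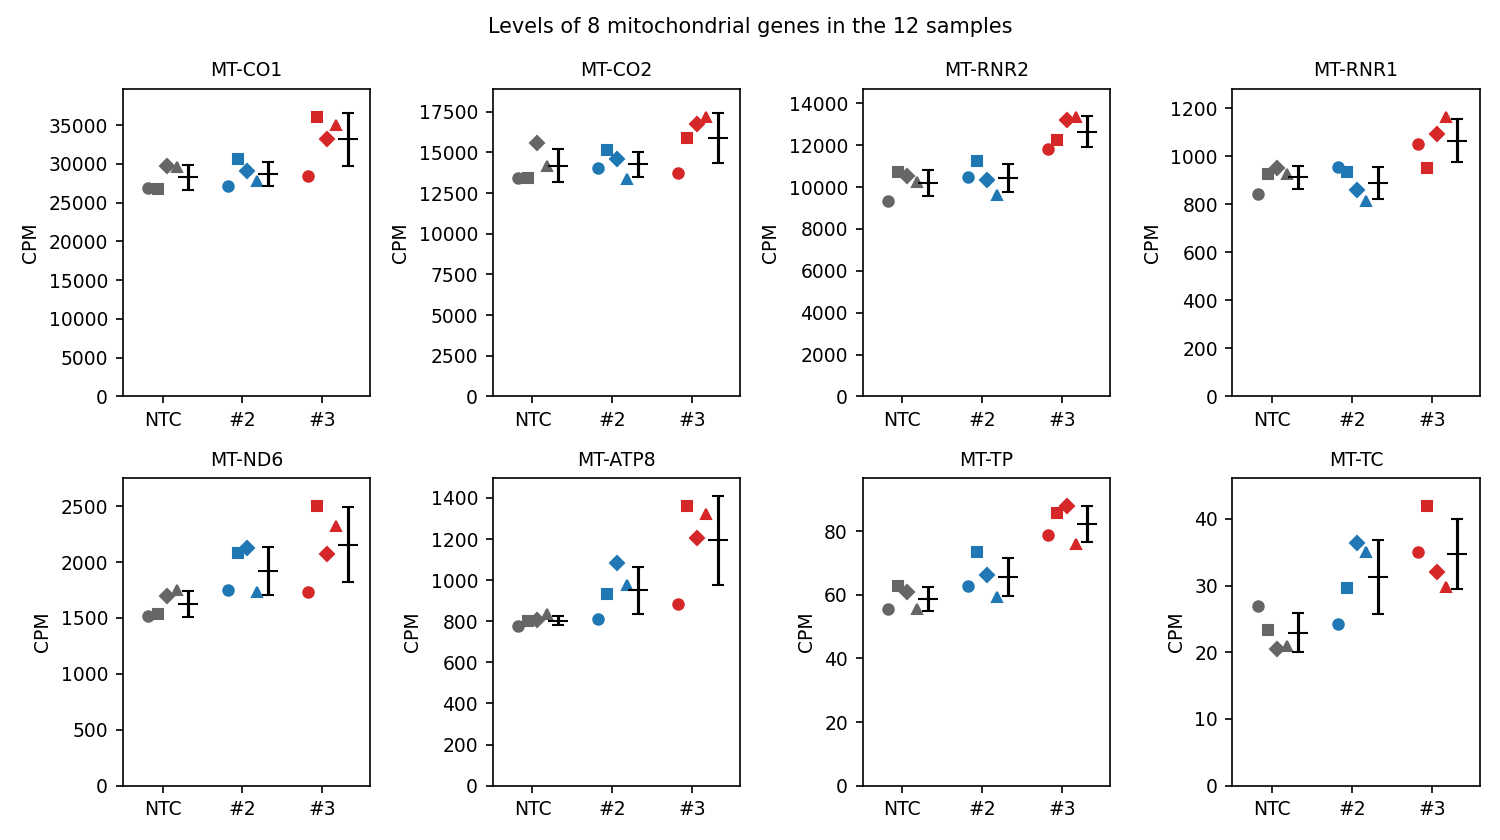
CPM of 8 mitochondrial genes in NTC, siCEACAM6#2 (#2) and siCEACAM6#3 (#3); points are samples (circle, square, diamond and triangle for replicates 1 to 4), bars the mean ± SD of 4 samples, and every axis starts at 0. All 4 samples of #3 lie above NTC in MT-RNR2, MT-ATP8, MT-TP and MT-TC, while the circle of #3 lies within or next to the NTC range in MT-CO1, MT-CO2 and MT-ND6.

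The nuclear genes that make and keep mitochondrial RNA were tested gene by gene. Of 45 genes of mitochondrial transcription, processing and decay, 0 were called versus NTC with either siRNA or in the average, by limma-voom or edgeR. By DESeq2 1, 0 and 0 were. Of all genes, limma-voom called 1.25%, 0.0681% and 0.227% there. Of all 17620 genes edgeR called 254, 13 and 55, and DESeq2 534, 220 and 332. Of the 45, 6, 6 and 4 had an unadjusted p under 0.05, where 13.6%, 12.5% and 12.9% of all genes had one. Median log2 fold changes of the 45 were -0.00, -0.03 and -0.01. POLRMT, the mitochondrial RNA polymerase, was at -0.08 ± 0.06 with siCEACAM6#3, and TFAM and TFB2M, its initiation factors, at -0.02 ± 0.10 and 0.02 ± 0.09. TEFM, an elongation factor, was at -0.04 ± 0.12. LRPPRC and SLIRP, which bind and stabilise the mRNAs, were at 0.01 ± 0.07 and -0.16 ± 0.10, and MTPAP, the poly(A) polymerase, at 0.02 ± 0.07. PNPT1 and SUPV3L1, of the RNA degradation machinery, were at -0.01 ± 0.08 and -0.13 ± 0.06. PPARGC1A, a coactivator of mitochondrial biogenesis, was at 0.92 ± 0.32 with siCEACAM6#3 (adjusted p = 0.254) and 0.96 ± 0.31 with siCEACAM6#2 (adjusted p = 0.162).

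Between the siRNAs 1 of the 45 genes was called, where 1.47% of all genes were, and 2 had an unadjusted p under 0.05, where 13.3% of all genes had one. The called gene was PRORP, the nuclease of mitochondrial RNase P that cuts tRNA 5′ ends, which fell by 0.30 ± 0.07 on the log2 scale with siCEACAM6#3 versus siCEACAM6#2 (limma-voom adjusted p = 0.0309). Versus NTC PRORP was at 0.27 ± 0.07 with siCEACAM6#2 (adjusted p = 0.0588) and -0.03 ± 0.07 with siCEACAM6#3 (adjusted p = 0.871). No gene of the list was called without NTC replicate 3, any siCEACAM6#2 sample or siCEACAM6#3 replicate 2.

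The nuclear-encoded subunits of the respiratory chain and ATP synthase work in the same complexes. Of 84 such genes 78 could be tested, and 0 were called in any of the 4 comparisons by limma-voom, edgeR or DESeq2. Of all genes, limma-voom called 1.25%, 0.0681%, 0.227% and 1.47% in these comparisons. Of all 17620 genes edgeR called 254, 13, 55 and 276, and DESeq2 534, 220, 332 and 556. With so few calls over all genes, 0 called says little about these subunits. At an unadjusted p under 0.05 were 1, 5, 1 and 3 of them, where 13.6%, 12.5%, 12.9% and 13.3% of all genes were. With siCEACAM6#3 versus NTC 28 of the 78 were positive and the median log2 fold change was -0.04, beside 24 of 25 and 0.26 for the mitochondrial members and 48.9% and -0.003 for all genes. The difference from the members was not tested, and the share of the members was known when they were selected.

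Copies of mitochondrial genes in the nuclear genome can share reads with the members. Of 404 such pseudogenes 10 could be tested. MTATP6P1 had the highest mean count, 20171, followed by MTND2P28 with 2929 and MTCO1P12 with 501. With siCEACAM6#3 versus NTC their log2 fold changes were 0.25 ± 0.09, 0.06 ± 0.11 and 0.21 ± 0.14. All 10 were positive with a median of 0.33, against 48.9% of all genes with a median of -0.003. Of the 10, 2 had an unadjusted p under 0.05, where 12.5% of all genes had one, and 0 were called by limma-voom, edgeR or DESeq2. Limma-voom called 0.0681% of all genes in this comparison, edgeR 13 of 17620 and DESeq2 220. Below the 3 named, the testable copies had mean counts of 16 to 76.3. Together the copies held 0.0945% to 0.133% of the counts of a sample. How many of these reads came from the mitochondrial chromosome was not tested, so the values of MT-ATP6, MT-ND2 and MT-CO1 are uncertain where reads could be split with a copy.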

How the data were processed

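RNA of 12 samples of SNU308 cells (3 groups of 4; transfected with siRNA at 25 nM for 3 days) was sequenced by the authors after oligo(dT) selection with DNBSEQ. Sources differ: strand-specific read pairs and Oligofectamine in the labels, single reads and RNAiMAX in the study's methods. Reads were trimmed by the authors with Trim Galore 0.6.4 and quantified with kallisto against GRCh38.p13. The kallisto version is 0.4.6 in the submitters' processing notes, and the study's methods give another version number. The authors deposited 2 values per gene, an estimated count from kallisto without normalisation, and TPM, scaled by effective length and depth. Of the counts above 0, 69.3% were not whole, and counts were rounded for the tests. Gene IDs were matched to symbols for 60357 of 60617 rows.

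The members and gene lists were chosen with earlier results of these data known. Every MT- gene is named. A tRNA gene that did not pass filterByExpr counts as too low to read. Full values are given for MT-CO1, MT-ND6, the rRNAs, the mRNAs highest in TPM, those with the largest average change and the 3 highest tRNA genes. Of the mitochondrial expression list, called genes and 10 set genes are named; of the nuclear copies, the 3 highest in mean count.

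limma 3.58.1 and edgeR 4.0.16 (R 4.3.3) gave TMM factors, voom weights and 1 mean per group over all 12 samples, for 17620 genes. CPM use TMM-scaled library sizes of 21240476 to 22465633. Ratios were tested by exact permutation, adjusted over 6 tests. The tests were checked on simulated data. The fold changes on TPM use log2(TPM + 1) and understate changes of low genes. Alternatives were RLE or no scaling factors, scaling on nuclear genes, no filter, edgeR quasi-likelihood, DESeq2 1.42.0, sample weights, TPM with a pseudocount of 1 or 0.1, a replicate block, fits of only the groups compared and leaving out each sample. A fragment length covariate and the ratio of MT-RNR2 alone to the heavy strand mRNAs were added after the data were seen. Whether the replicates came from separate cultures is described only as individual experiments, so p-values measure the spread between these samples. At 21799476 to 22059456 counts per sample, counting error was small beside the spread between samples for mRNAs and rRNAs.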

Additional observations from a re-analysis of the deposited data

Results flagged for a closer look

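MT-TP differed between the siRNAs in its change versus NTC, by 0.33 on the log2 scale (limma-voom adjusted p = 0.0262), and MT-RNR2 by 0.28 (adjusted p = 0.0247). The siCEACAM6#3 samples were higher than all siCEACAM6#2 samples in both genes.

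One sample stood far from the rest of its group. MT-TN in siCEACAM6#2 was at 4.65 CPM in replicate 3, and this gap was 0.933 of the range of the group, above the 95% limit for 4 samples of Dixon's test. That range was narrow, from 4.65 to 4.8 CPM. It was the only such sample among 84 groups of values looked at, where chance alone gives about 1 in 20.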

How the results depend on the processing

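By share of TPM the mitochondrial genes took 23.6%, 24.1% and 26.7% in NTC, siCEACAM6#2 and siCEACAM6#3, and by the 13 mRNAs alone 11.2%, 11.6% and 12.8%. Among the 25 readable members, in the order siCEACAM6#2 versus NTC, siCEACAM6#3 versus NTC, average versus NTC and siCEACAM6#3 versus siCEACAM6#2, the calls were 0, 1, 1 and 2. DESeq2 gave 1, 8, 5 and 3, sample weights 1, 8, 8 and 3, no count filter 0, 2, 0 and 3, either TPM fit 0 throughout, only the groups compared 0, 1, 0 and 0, and the fragment length covariate 0, 0, 0 and 3; the cause was not tested. RLE factors, library size alone, nuclear-gene scaling and edgeR gave the counts of the text, and no scaling moved the median of all genes by 0.1. Leaving out a sample gave 0 to 1, 0 to 13, 0 to 5 and 0 to 8, the highest 3 of these without siCEACAM6#3 replicate 1 and the 1 without siCEACAM6#2 replicate 1.

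Over all genes the calls went from 221, 12, 40 and 259 to 534, 220, 332 and 556 by DESeq2, 1120, 382, 899 and 560 with sample weights, 5, 4, 2 and 49 on TPM with a pseudocount of 1, 91, 0, 1 and 298 with the covariate, 600, 10, 11 and 57 with only the groups compared, 160, 24, 45 and 211 with no filter and 284, 87, 118 and 349 with the replicate block. Leaving out a sample gave 49 to 364, 2 to 258, 3 to 204 and 83 to 651.

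With a replicate block the calls were 0, 4, 2 and 2 (with siCEACAM6#3: MT-ATP8, MT-ND6, MT-RNR2 and MT-TP). Whether the numbers pair the samples was not settled. Of the 12 same-number pairs 2 had deviations correlated over 0.1 (range -0.060 to 0.224), and 4 of 12 samples correlated best with their own number. The block also raised the calls over all genes, from 12 to 87 with siCEACAM6#3 versus NTC. In the ratio tests neither TPM nor leaving out a sample brought an adjusted p under 0.05. The block could not, since sign flips over 4 replicate differences cannot give a p that low.

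Of the mitochondrial expression list, DESeq2 called 1 gene with siCEACAM6#2, sample weights 4 there and 3 in the average, and leaving out a sample 0 to 1 with siCEACAM6#2 and 0 to 1 between the siRNAs. Without siCEACAM6#3 replicate 1, 1 nuclear chain gene was called between the siRNAs and 1 nuclear copy with siCEACAM6#3 and between the siRNAs, and 0 in the other fits that left out a sample.

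Signs changed only for members called in neither fit. With siCEACAM6#2, TPM (pseudocount 1 or 0.1) gave -0.03 for MT-CO2 and -0.01 for MT-CO1, and in the average -0.00 for MT-CO3. MT-TL2 was at 0.07 by edgeR and DESeq2 and 0.09 with sample weights. The fragment length covariate gave, with siCEACAM6#2, -0.01 for MT-CO2, -0.05 for MT-CO1, -0.02 for MT-ND4, -0.14 for MT-TL1, -0.03 for MT-TS1 and MT-ND4L and 0.03 for MT-RNR1. With siCEACAM6#3 it gave -0.08 for MT-TL1, -0.13 for MT-TL2 and 0.15 for MT-TT, and in the average -0.03 for MT-CYB, -0.11 for MT-TL1 and -0.38 for MT-TL2. Leaving out a sample gave, with siCEACAM6#2, -0.01 to 0.06 for MT-CO2, -0.01 to 0.05 for MT-CO1, -0.76 to 0.40 for MT-TL2, -0.07 to 0.01 for MT-RNR1, -0.03 to 0.01 for MT-CO3, -0.01 to 0.07 for MT-RNR2, -0.04 to 0.15 for MT-TN and -0.12 to 0.08 for MT-TE. With siCEACAM6#3 it gave -0.21 to 0.04 for MT-TT and -0.15 to 0.39 for MT-TA, in the average -0.08 to 0.53 for MT-TL2 and -0.01 to 0.18 for MT-TT, and between the siRNAs -0.04 to 0.25 for MT-TL1 and -0.51 to 0.03 for MT-TA.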
